A study of Mus musculus with 18 samples.

Results

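COMPASS complexes place methyl groups on lysine 4 of histone H3, and KMT2C and KMT2D are the catalytic subunits that were targeted in this study. The genes described here are the remaining catalytic paralogues and the shared or partner subunits of these complexes, chosen by symbol: KMT2A, KMT2B, SETD1A, SETD1B, WDR5, RBBP5, ASH2L, DPY30, NCOA6 and PAXIP1. These 10 symbols were taken from 24385 symbols listed in either of the 2 count tables, and all 10 passed the filter on low counts in both cell lines. The question was whether paralogues or shared subunits differed in transcript level after loss of Kmt2c or Kmt2d.

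Every COMPASS complex is built from a large methyltransferase and a common core. WDR5, RBBP5, ASH2L and DPY30 form that core, which binds the catalytic domain and raises its activity. SETD1A and SETD1B are known mainly for trimethylation at active promoters, KMT2A and KMT2B for promoters of developmental genes, and KMT2C and KMT2D for monomethylation at enhancers, where NCOA6 and PAXIP1 are partners found with this last pair of enzymes.

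RNA from 168FARN and 67NR, 2 mouse mammary tumour cell lines described by the study as non-metastatic, was sequenced as poly(A)-selected libraries. Each line gave 3 groups of 3 libraries, WT, Kmt2c KO and Kmt2d KO, for 18 libraries in all. The count columns of the 168FARN WT libraries carry the name sgControl and those of 67NR the name WT. Each KO was a pool of sorted cells, not a clone: cells received guides in mCherry vectors together with a Cas9 and GFP vector, were sorted for both colours over repeated rounds, and were sorted for loss of both colours at the end, so unedited alleles could remain.

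The total count was 14359760 to 43427382 per library in 168FARN and 40951775 to 79251530 in 67NR. RN45S, a ribosomal RNA transcript, took 28.7% of the counts in 67NR Kmt2d KO replicate 3 and 0.458% to 4.96% in the other 17 libraries. Of 6 epithelial markers, 168FARN expressed only KRT8 above 1 CPM (the count scaled to library size) while all 6 mesenchymal markers were above it. In 67NR all 6 epithelial and all 6 mesenchymal markers were above 1 CPM. CDH1, EPCAM, KRT19 and ESRP1 were under 0.1 CPM in every 168FARN group, so these defining markers of epithelial cells were at or near 0 in that line. Of 4 white blood cell markers, PTPRC and CD3E were under 0.1 CPM in every group, and CD68 was above 1 CPM in each, as was CSF1R in 67NR WT. The summed level of the 4 was 2.80 to 91.6 CPM in 168FARN libraries and 19.7 to 82.2 CPM in 67NR.

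The guides show which part of the targeted genes was cut and whether the paralogues hold a like sequence. Each is printed 5′ to 3′ with the 20-base target in lower case and the adjacent NGG motif in capitals, and positions are those of the 20 bases in mm9.
KMT2C guide 1, chr5:25004241-25004260, plus strand: tctttgcgaggccggccccgAGG
KMT2C guide 2, chr5:25004359-25004378, minus strand: ggtgactaggatgtcgtcggAGG
KMT2C guide 3, chr5:25004229-25004248, plus strand: ggggaagcgccatctttgcgAGG
KMT2D guide 1, chr15:98701571-98701590, plus strand: acggtaaatccaggtcggagTGG
KMT2D guide 2, chr15:98701464-98701483, plus strand: gaaatcctcatccgagaacaTGG
KMT2D guide 3, chr15:98701588-98701607, plus strand: gagtggtcacccttcccccgGGG
All 6 guides had 1 exact site in mm9, at the 5′ end of the targeted gene, in exon sequence annotated as coding or untranslated for KMT2C and as untranslated for KMT2D. No site with an NGG motif inside any of the 10 genes came closer than 6 mismatches to a guide. The fewest mismatches within the other targeted gene were 6 or 7.

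No fall of a targeted transcript passed the test in its own KO group. In 168FARN, KMT2C measured 113, 106 and 44.7 CPM across the WT libraries and 96.7, 89.1 and 46.9 across Kmt2c KO, with overlapping groups and a log2 difference of -0.18 (95% interval -1.31 to 0.95). In 67NR, KMT2C was at 56.9, 63.1 and 54.6 CPM in the WT libraries, at 88.9, 95.7 and 85.5 CPM in the Kmt2c KO libraries and at 94.8, 113 and 95.8 CPM in the Kmt2d KO libraries. Every KO library was therefore above every WT library, and KMT2C rose by log2 0.63 ± 0.14 (SE) in Kmt2c KO (adjusted p = 0.0067) and by 0.80 ± 0.14 in Kmt2d KO (adjusted p = 0.0031). KMT2D in 67NR Kmt2d KO did not pass the test (log2 0.22 ± 0.23, adjusted p = 0.56) and in 67NR Kmt2c KO it passed with the replicate number as a block (0.45 ± 0.16, adjusted p = 0.038). In 168FARN, KMT2D measured 160.0, 159 and 104 CPM across the WT libraries and 296, 260 and 136 across Kmt2d KO. Its log2 fold change was 0.71 ± 0.36, which passed the test with the replicate number as a block (0.66 ± 0.12, adjusted p = 0.0062). Small insertions or deletions in an opening exon need not lower the count of a transcript of 20.3 kb (KMT2C) or 19.8 kb (KMT2D), so gene counts do not check these edits, and the groups below are named by their labels. The study also sequenced the targeted sites and blotted the proteins, which were not analysed here.

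Levels between genes were compared as RPKM, which divides CPM by the exon length in kilobases. DPY30, the small core subunit that docks on ASH2L, was highest in all 6 groups, with means between 78.2 ± 15.5 RPKM (SD, n = 3) in 67NR Kmt2c KO and 101 ± 19.9 RPKM in 67NR WT. ASH2L followed at 20.9 to 28.5 RPKM and WDR5 at 15.6 to 17.9 RPKM. RBBP5, the remaining core subunit, stood at 8.89 to 14.7 RPKM. DPY30, ASH2L and WDR5 had higher means than every enzyme in all 6 groups. RBBP5 had a lower mean than SETD1A in both Kmt2c KO groups and than KMT2A in both 67NR KO groups. By mean, SETD1A was the highest enzyme transcript in every 168FARN group, at 11.9 ± 0.77 RPKM in WT. KMT2A had the highest mean in 67NR WT, at 8.56 ± 1.41 RPKM. In 168FARN Kmt2d KO, KMT2D was above SETD1A in replicates 1 and 2 (14.9 and 13.1 RPKM against 14.6 and 12.9 RPKM). The lowest of the 10 members in every 168FARN group was SETD1B at 2.35 to 2.71 RPKM, and in 67NR WT it was KMT2B at 2.77 ± 0.47 RPKM. Neighbours in this order often overlapped. In 67NR WT the library values of DPY30, ASH2L, WDR5, RBBP5 and KMT2A each stood clear of the next, whereas those of NCOA6, PAXIP1 and SETD1A, between 6.15 and 6.76 RPKM on average, overlapped with each other. KMT2A overlapped with PAXIP1 further down, its lowest library being at 7.44 RPKM and the highest of PAXIP1 at 7.66 RPKM. In 168FARN WT the ASH2L and WDR5 libraries overlapped, as did those of RBBP5 and SETD1A.

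The positions of the genes in mm9, with the names in the GENCODE annotation where these differ, were as follows. Among the enzymes, KMT2A (Mll1) lies on chr9:44611438-44689379, KMT2B (Wbp7) on chr7:31353877-31373745, SETD1A on chr7:134920184-134943636 and SETD1B on chr5:123592202-123617444. Of the core subunits, WDR5 lies on chr2:27370677-27392055, RBBP5 on chr1:134373944-134402242, ASH2L on chr8:26926663-26958166 and DPY30 on chr17:74698814-74723284. NCOA6 lies on chr2:155216401-155299630 and PAXIP1 on chr5:28067207-28117879. Exons of SETD1A shared 51.8% of their bases with the Hsd3b7 gene model on the same strand, so reads of the pair could be split between them in the counting. The exons of the other 9 members overlapped no other gene model.

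**Figure D1:**
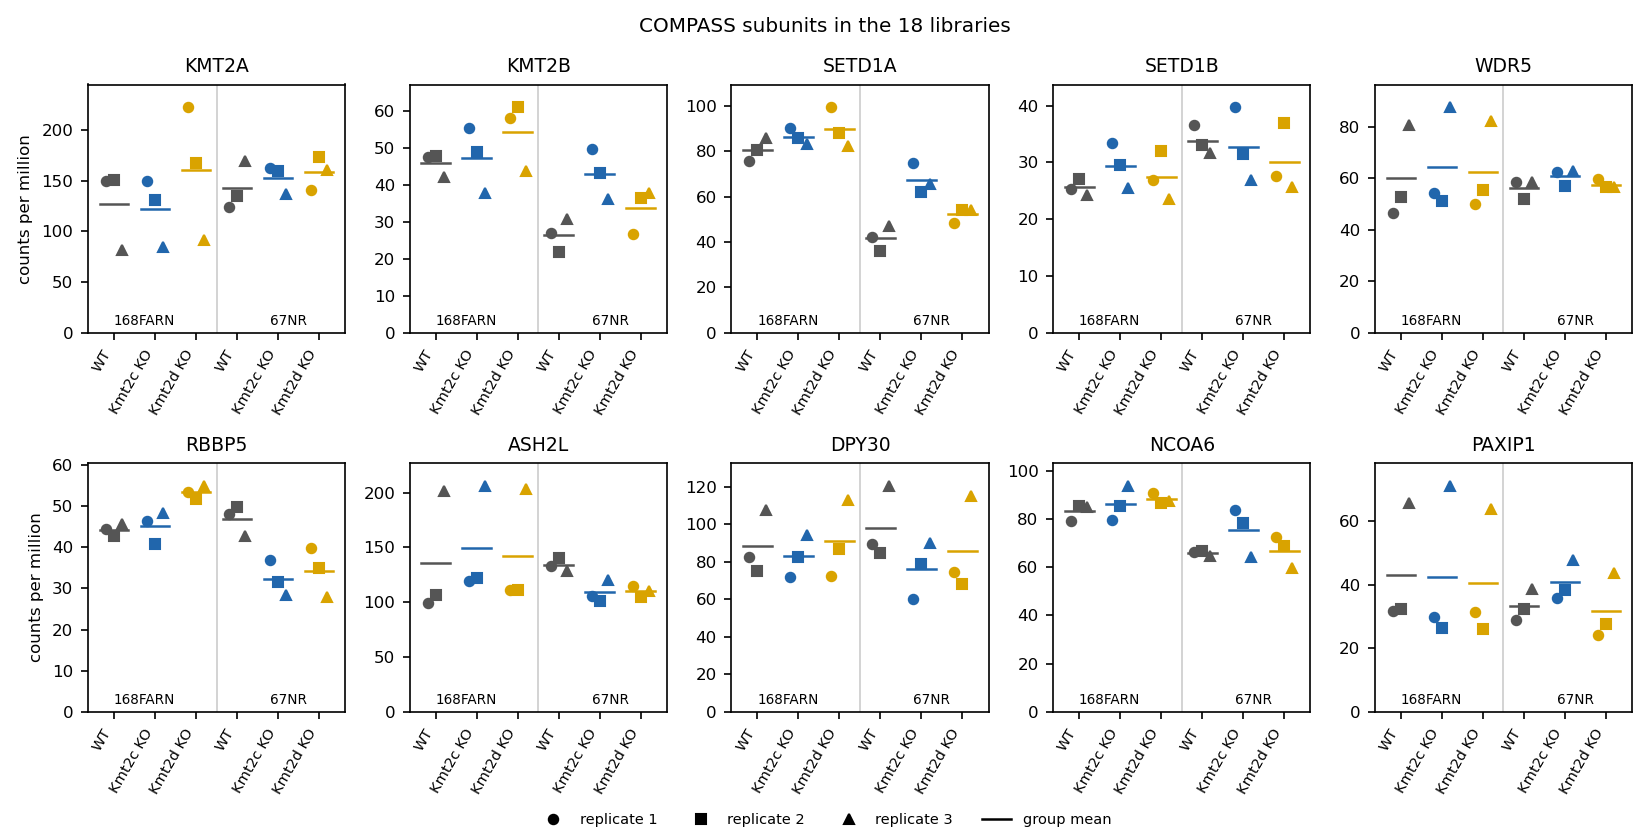
CPM (vertical axis, starting at 0) of the 10 COMPASS subunits in each of the 18 libraries, grouped by line and genotype (horizontal axis); circles, squares and triangles are replicates 1, 2 and 3, and horizontal lines are group means. In 168FARN the triangles of ASH2L, WDR5 and PAXIP1 lie above the other libraries in every genotype, and in 67NR all RBBP5 libraries of both KO groups lie below those of WT.

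The catalytic paralogues were compared in 67NR Kmt2c KO with WT. KMT2B and SETD1A rose, while KMT2A and SETD1B did not pass the test. In this comparison 34.2% of the 13665 genes tested were called at an adjusted p under 0.05 (17.5% higher and 16.7% lower), and 3 of the 10 members were called, 2 higher and 1 lower against this background. The median log2 fold change was 0.11 over the 10 members and -0.02 over all genes tested. In bulk RNA, fewer cells of a kind and less RNA per cell cannot be told apart.

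KMT2B was at 27.1, 21.8 and 30.8 CPM in the 67NR WT libraries and at 49.7, 43.1 and 36.2 CPM in the Kmt2c KO libraries. The groups did not overlap, and the lowest KO library, replicate 3, was close to the highest WT library, also replicate 3. KMT2B rose by log2 0.70 ± 0.20 (SE), with an adjusted p of 0.027 in edgeR's quasi-likelihood test. The log2 ratio of KO to WT within replicate numbers came to 0.88, 0.99 and 0.23. The call was lost without Kmt2c KO replicate 1 or 2 or WT replicate 1 or 2, where the log2 fold change ran from 0.56 to 0.82 over the 6 fits that each left out 1 library.

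SETD1A, a catalytic subunit of the SET1 complexes, measured 42.3, 35.9 and 47.1 CPM across the 67NR WT libraries and 74.7, 61.9 and 65.4 across Kmt2c KO. Every KO library was above every WT library. It rose by log2 0.69 ± 0.15 (adjusted p = 0.0070) and kept its call in all 6 fits without 1 library, at 0.58 to 0.78. HSD3B7, the overlapping gene and an enzyme of bile acid synthesis, rose in the same comparison, from 31.4, 30.8 and 22.7 CPM to 87.4, 90.3 and 45.9 CPM (log2 1.40 ± 0.31, adjusted p = 0.0070). Its part in the SETD1A difference was not tested.

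KMT2A measured 124, 135 and 169 CPM across the 67NR WT libraries and 163, 159 and 137 across Kmt2c KO. These libraries overlapped, and the log2 difference was 0.10, with a 95% interval from -0.27 to 0.47. SETD1B, the sister of SETD1A, differed by -0.04, with an interval from -0.49 to 0.40.

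In 67NR Kmt2d KO, 22.8% of genes tested were called, and 0 of the 10 members were. At an unadjusted p under 0.05 the count was 1 with edgeR and 2 with DESeq2, which also called 0 after adjustment. The median log2 fold change was -0.02 over the members and -0.02 over all genes. SETD1A was at 48.3, 54.1 and 54.3 CPM, above all 3 WT libraries, with a log2 fold change of 0.32 ± 0.15 (adjusted p = 0.17). HSD3B7 was at 83.6, 92.3 and 51.1 CPM in the same libraries (log2 1.42 ± 0.31, adjusted p = 0.010), so its level was close to that in Kmt2c KO. KMT2B was at 26.8, 36.5 and 37.9 CPM and overlapped with WT (log2 0.35 ± 0.20, adjusted p = 0.27). Taken directly against each other, Kmt2c KO and Kmt2d KO in 67NR gave calls for 0.659% of genes, 4 higher and 86 lower in Kmt2c KO, and for 0 of the 10 members (1 at an unadjusted p under 0.05 with edgeR and 1 with DESeq2). The Kmt2c KO minus Kmt2d KO difference was 0.37 for SETD1A (95% interval 0.03 to 0.71, adjusted p = 0.42) and 0.35 for KMT2B (-0.11 to 0.81, adjusted p = 0.59). A larger rise of either gene in Kmt2c KO than in Kmt2d KO was therefore not shown.

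**Figure D2:**
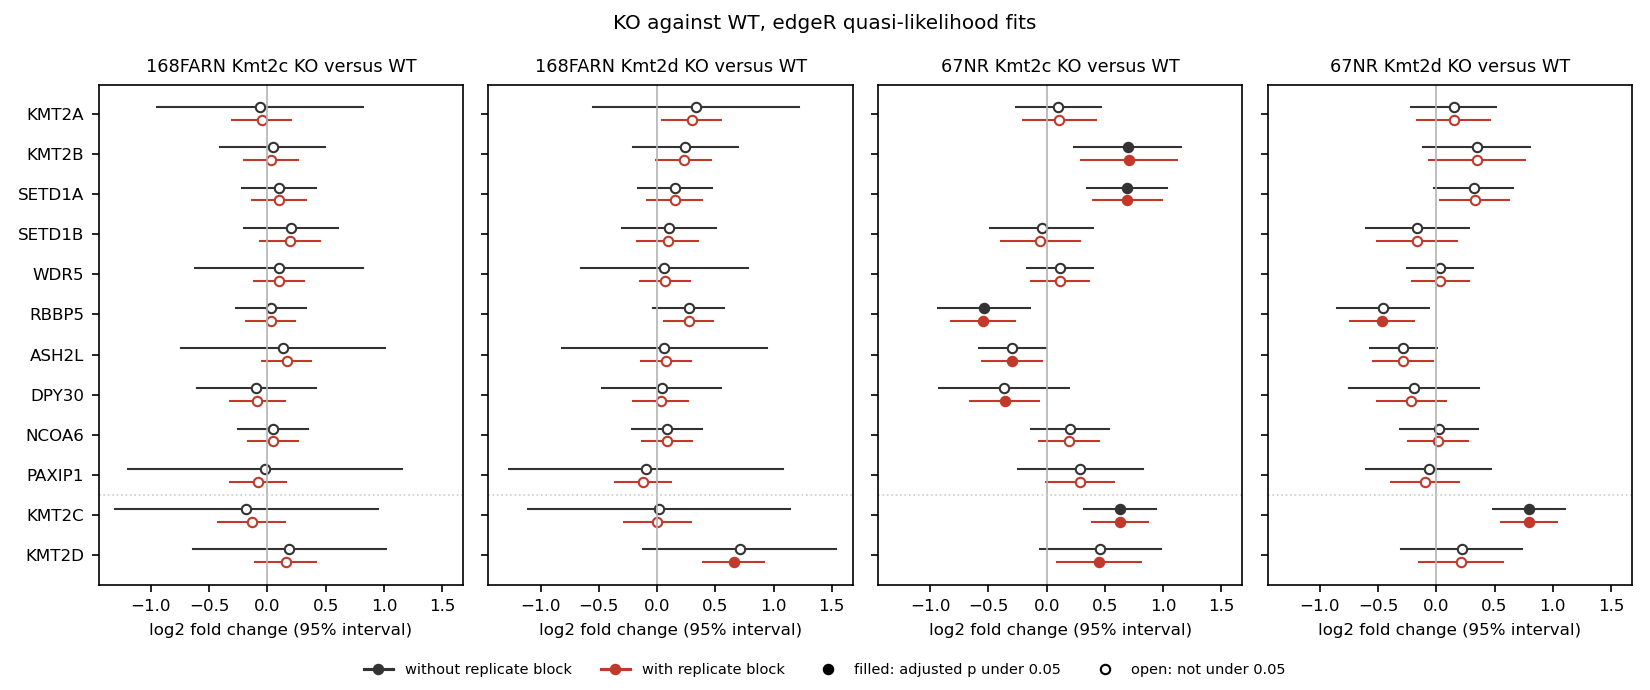
Log2 fold change of KO against WT with its 95% interval (horizontal axis) for the 10 members and, below the dotted line, the targeted KMT2C and KMT2D, in 4 comparisons. Dark symbols are the fit without and red symbols the fit with the replicate number as a block, and filled symbols have an adjusted p under 0.05. Filled symbols of the 10 members stand only in the 67NR panels, and the 168FARN intervals narrow with the block.

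The core subunits were considered next. RBBP5, which with WDR5 and ASH2L contacts the catalytic domain, fell in 67NR Kmt2c KO. It measured 48.1, 49.8 and 42.7 CPM across the WT libraries, 37.0, 31.5 and 28.4 across Kmt2c KO and 39.9, 34.9 and 27.8 across Kmt2d KO. All 6 KO libraries were below all 3 WT libraries, which serve as controls for both comparisons. The log2 fold change was -0.54 ± 0.18 in Kmt2c KO (adjusted p = 0.042) and -0.45 ± 0.18 in Kmt2d KO (adjusted p = 0.097). With the replicate block the values were -0.54 ± 0.12 (adjusted p = 0.0036) and -0.47 ± 0.12 (adjusted p = 0.011), so that RBBP5 was called in both. The unblocked call in Kmt2c KO was lost without Kmt2c KO replicate 2 or 3 or WT replicate 1 or 2, with a log2 fold change of -0.65 to -0.45 over the 6 fits.

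ASH2L, the subunit that binds DPY30, measured 133, 140.0 and 129 CPM across the 67NR WT libraries, 106, 101 and 120.4 across Kmt2c KO and 115, 105 and 111 across Kmt2d KO. The KO libraries were again all below the WT libraries. The log2 fold change was -0.30 ± 0.13 in Kmt2c KO (adjusted p = 0.11) and -0.28 ± 0.13 in Kmt2d KO (adjusted p = 0.15). With the block only the Kmt2c KO value passed (-0.30 ± 0.12, adjusted p = 0.049).

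DPY30 measured 89.4, 84.5 and 120.3 CPM across the 67NR WT libraries and 59.9, 78.8 and 89.7 across Kmt2c KO. The groups overlapped because replicate 3 was the highest library of each, and the log2 fold change was -0.37 ± 0.25 (adjusted p = 0.30). Within replicate numbers the KO was lower each time, by -0.58, -0.10 and -0.42, and the blocked value was called (-0.36 ± 0.14, adjusted p = 0.043). In Kmt2d KO the DPY30 value was -0.19 ± 0.25 (adjusted p = 0.64) and the blocked value -0.21 ± 0.14 (adjusted p = 0.23).

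WDR5, the core subunit that recognises the catalytic subunits by a short peptide, measured 58.4, 51.9 and 58.5 CPM across the 67NR WT libraries, 62.6, 57.0 and 62.9 across Kmt2c KO and 59.5, 56.6 and 56.4 across Kmt2d KO. All groups overlapped. The log2 difference was 0.11 (95% interval -0.17 to 0.39) in Kmt2c KO and 0.03 (-0.25 to 0.31) in Kmt2d KO.

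NCOA6 and PAXIP1, the partners of KMT2C and KMT2D, were not called in KO against WT with or without the block. In 67NR, NCOA6 measured 66.2, 66.7 and 64.7 CPM across the WT libraries, 83.8, 78.6 and 64.2 across Kmt2c KO and 72.4, 68.9 and 59.6 across Kmt2d KO. Its Kmt2c KO libraries of replicates 1 and 2 were above WT and that of replicate 3 was not. With replicates 1 and 2 alone, a choice made after the values were seen, NCOA6 was among 7 of 10 members called there, beside 60.4% of all genes. PAXIP1 measured 28.9, 32.3 and 38.7 CPM across the WT libraries, 35.7, 38.4 and 47.8 across Kmt2c KO and 24.2, 27.5 and 43.6 across Kmt2d KO. The log2 difference of PAXIP1 was 0.29 (95% interval -0.25 to 0.83) in Kmt2c KO and -0.07 (-0.61 to 0.47) in Kmt2d KO.

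With the block, 52.5% of all genes tested and 5 of the 10 members (KMT2B and SETD1A higher, RBBP5, ASH2L and DPY30 lower) were called in 67NR Kmt2c KO, and 41.8% of genes and 1 member (RBBP5, lower) in Kmt2d KO. DESeq2 with the block called 41.4% of genes and 3 members in Kmt2c KO, and the ASH2L (adjusted p = 0.075) and DPY30 (adjusted p = 0.060) calls were lost. Other transcripts of the lines moved alongside: the summed level of the 6 epithelial markers was 2234 to 3442 CPM in 67NR WT libraries, 494 to 800.3 CPM in Kmt2c KO and 849.6 to 1606 CPM in Kmt2d KO. The summed level of the 6 mesenchymal markers was 3174 to 5988 CPM, 4268 to 5601 CPM and 3998 to 5609 CPM in the same order. These ranges overlapped, but the median over the same 6 markers was higher in both KOs. This median stood at 145 CPM for Kmt2c and 117 CPM for Kmt2d, against a WT value of 25.6 CPM. The part of these marker differences in the members' values was not tested.

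In 168FARN none of the members was called in either KO. Of all genes tested, 0.188% were called in Kmt2c KO against 0.155% in Kmt2d KO, and of the members 0 of 10 in each. The count of members at an unadjusted p under 0.05 was 0 in Kmt2c KO with edgeR and with DESeq2, and 0 and 1 in Kmt2d KO. With the block the shares were 10.7% and 6.64%, and the count of members was 0 in both (0 and 2 at an unadjusted p under 0.05). The 2 KOs set directly against each other gave calls for 0.171% of genes and 0 members, with 0 at an unadjusted p under 0.05 by edgeR and by DESeq2.

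RBBP5 in 168FARN measured 44.4, 42.7 and 45.8 CPM across the WT libraries, 46.4, 40.9 and 48.3 across Kmt2c KO and 53.5, 51.9 and 54.9 across Kmt2d KO. All 3 Kmt2d KO libraries were above all WT libraries, with log2 ratios of 0.27, 0.28 and 0.26 within replicate numbers. The log2 fold change was 0.27 ± 0.13 (adjusted p = 1) and with the block 0.27 ± 0.10 (adjusted p = 0.12), so a rise was not shown at this number of libraries.

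KMT2A, which carries developmental gene promoters among its known targets, measured 149.9, 151 and 81.3 CPM across the 168FARN WT libraries, 149.7, 131 and 85.0 across Kmt2c KO and 223, 167 and 91.1 across Kmt2d KO. Replicate 3 was the lowest library of every group. The log2 difference in Kmt2d KO was 0.33 (95% interval -0.55 to 1.22), and with the block it was 0.30 (0.04 to 0.55, adjusted p = 0.15). With replicates 1 and 2 alone, a choice made after the values were seen, KMT2A (0.39, adjusted p = 0.044) and KMT2B (0.33, adjusted p = 0.046) were called in Kmt2d KO, beside 21.1% of all genes.

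SETD1A measured 75.6, 80.6 and 86.0 CPM across the 168FARN WT libraries, 90.4, 86.1 and 83.2 across Kmt2c KO and 99.5, 88.0 and 82.2 across Kmt2d KO. The groups overlapped, and the log2 differences were 0.10 (95% interval -0.22 to 0.42) and 0.16 (-0.17 to 0.48). For WDR5, ASH2L, DPY30, NCOA6, SETD1B and PAXIP1 the log2 differences in the 168FARN KO groups lay between -0.09 and 0.20, with intervals reaching -1.27 and 1.08 for PAXIP1 in Kmt2d KO and -0.22 and 0.39 for NCOA6 there. Changes smaller than these intervals were not detectable in this line by the fit without the replicate block. With the block the 168FARN intervals were narrower, and 0 of the 10 members were called in either KO.

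**Figure D3:**
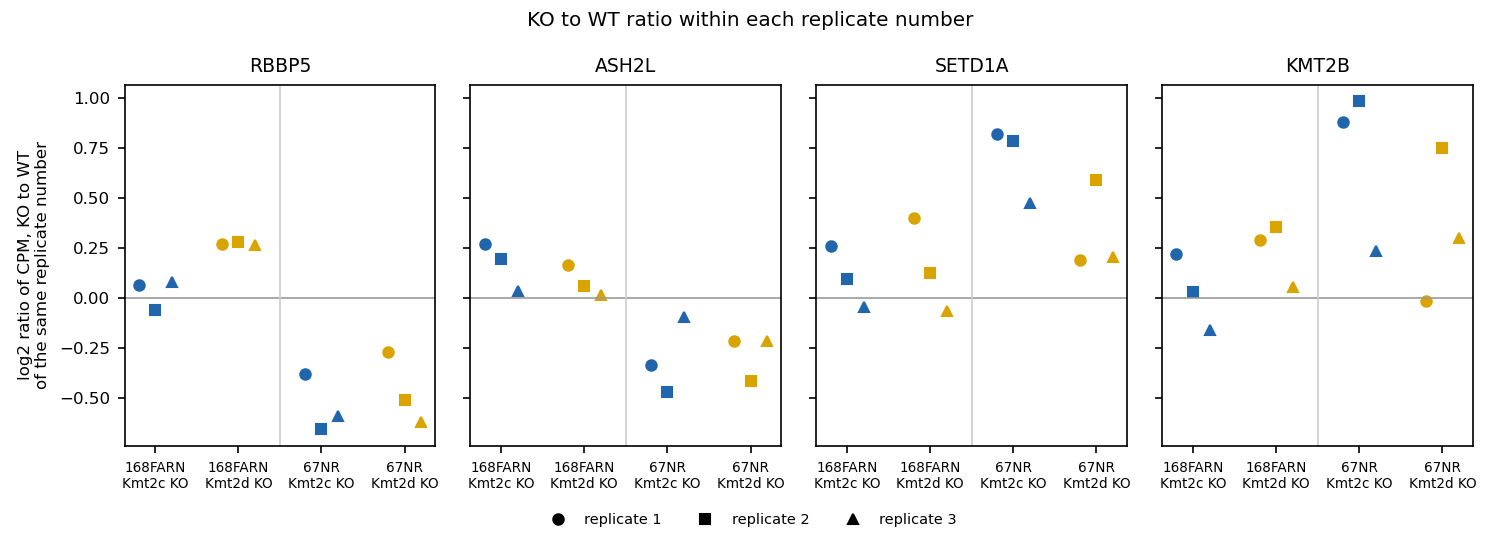
Log2 ratio of CPM in a KO library to the WT library of the same replicate number (vertical axis) for RBBP5, ASH2L, SETD1A and KMT2B in the 4 comparisons (horizontal axis); circles, squares and triangles are replicates 1, 2 and 3. The RBBP5 ratios of Kmt2d KO are 0.27, 0.28 and 0.26 in 168FARN and -0.27, -0.51 and -0.62 in 67NR.

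The difference between the lines was tested as an interaction over all 18 libraries. For Kmt2d KO, 7.3% of 13882 genes and 1 of the 10 members were called: RBBP5, whose effect in 67NR minus that in 168FARN was -0.79 ± 0.22 on the log2 scale (adjusted p = 0.039; with the block -0.80 ± 0.15, adjusted p = 0.00067). The unblocked call was lost in 10 of the 12 fits that left out 1 library, the 2 exceptions being 67NR Kmt2d KO replicate 1 and 67NR WT replicate 3, with values of -0.85 to -0.63. For Kmt2c KO, 11.5% of genes and 0 of the 10 members were called, with RBBP5 at -0.65 ± 0.22 (adjusted p = 0.069). At an unadjusted p under 0.05 the count for Kmt2c KO was 2, and DESeq2 called 2 (RBBP5 and SETD1A).

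With the block the Kmt2c KO interaction was called for 36.3% of genes and 4 members. SETD1A (0.51 ± 0.17, adjusted p = 0.024) and KMT2B (0.60 ± 0.22, adjusted p = 0.046) were relatively higher in 67NR, and RBBP5 (-0.65 ± 0.15, adjusted p = 0.0024) and ASH2L (-0.55 ± 0.15, adjusted p = 0.0080) relatively lower. The blocked Kmt2d KO interaction was called for 29% of genes and for 2 members, RBBP5 and ASH2L (-0.43 ± 0.15, adjusted p = 0.039).

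The WT lines themselves differed in 36.5% of 13882 genes and in 2 of the 10 members. SETD1A was lower in 67NR WT, at 35.9 to 47.1 CPM against 75.6 to 86.0 CPM in 168FARN WT (log2 -0.95 ± 0.14, adjusted p = 6.85e-05). KMT2B was also lower there, at 21.8 to 30.8 CPM against 42.1 to 47.8 CPM (log2 -0.79 ± 0.21, adjusted p = 0.0064). The WT libraries of 67NR enter both this comparison and those with the KO groups. The tables of the lines were deposited separately and no source says that the lines were prepared side by side, so line and preparation cannot be told apart.

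As shares of the summed RPKM of the 6 methyltransferase transcripts, SETD1A made up 31.9% ± 7.08 (SD, n = 3) in 168FARN WT and 21.6% ± 1.66 in 67NR WT. In 67NR Kmt2c KO its share was 26.3% ± 2.33, the libraries being at 26.1%, 24.1% and 28.8%, above the WT libraries at 22.0%, 19.8% and 23.1%. KMT2A held 30.1% ± 3.72 in 67NR WT and 24.3% ± 1.06 in Kmt2c KO, with libraries at 26.3%, 30.3% and 33.7% against 23.2%, 25.3% and 24.5%. The summed share of an enzyme falls when another rises, so these shares are a description of the balance and were not tested. They also depend on how reads shared between SETD1A and the Hsd3b7 model were assigned. KMT2C itself went from 10.2% ± 1.37 in 67NR WT to 14.6% ± 0.71 in Kmt2d KO.

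**Figure D4:**
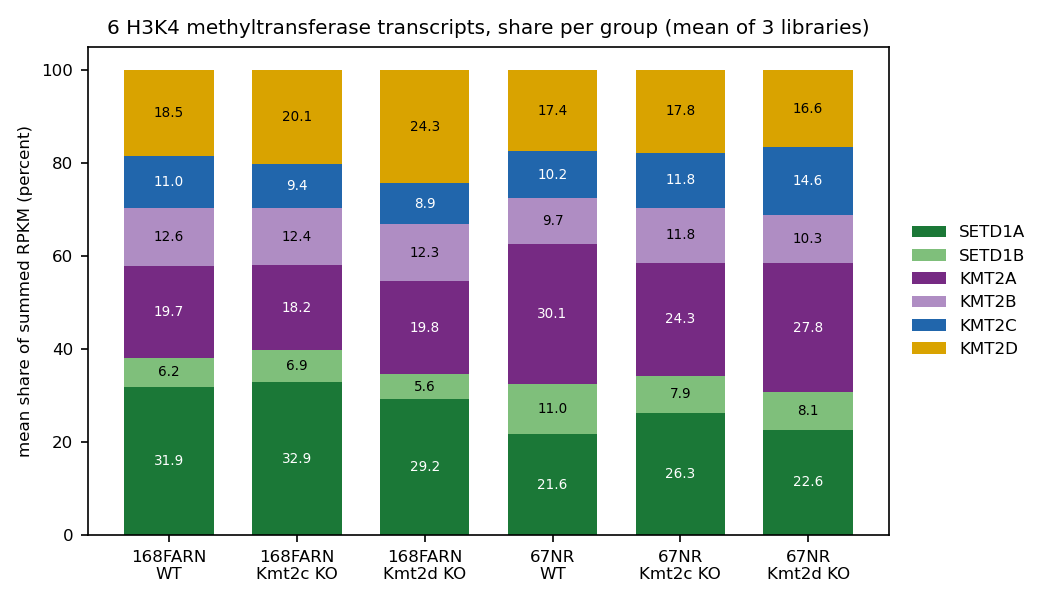
Mean share, in percent, of each of the 6 methyltransferase transcripts in their summed RPKM (vertical axis) for the 6 groups (horizontal axis), 3 libraries each. SETD1A takes the largest mean share in the 168FARN groups, 31.9% in WT, and KMT2A in 67NR WT, 30.1%. In 168FARN Kmt2d KO the share of KMT2D was above that of SETD1A in replicates 1 and 2.

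The replicate numbers were compared next. Replicate 3 against replicates 1 and 2, with genotype in the fit, gave calls for 69.6% of genes in 168FARN and 43.4% in 67NR. Of the members, 6 of 10 were called in 168FARN and 3 of 10 in 67NR, neither share above its background. ASH2L was at 201.6, 206 and 203 CPM in the replicate 3 libraries of 168FARN against 99.1 to 122 CPM in the other 6 (log2 0.87 ± 0.08, adjusted p = 1.58e-06). PAXIP1 was at 65.7, 71.0 and 63.9 CPM against 25.9 to 32.2 CPM (log2 1.18 ± 0.09, adjusted p = 3.11e-07). These groups of libraries did not overlap in either gene.

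WDR5 (log2 0.69 ± 0.08) and DPY30 (0.42 ± 0.09) were also higher in replicate 3 of 168FARN, and KMT2A (-0.90 ± 0.11) and KMT2B (-0.36 ± 0.10) were lower, as were the targeted KMT2C (-1.17 ± 0.12) and KMT2D (-0.82 ± 0.11). SETD1A, SETD1B, RBBP5 and NCOA6 were not called. In 67NR, DPY30 (0.51 ± 0.12) and PAXIP1 (0.49 ± 0.11) were higher and RBBP5 (-0.30 ± 0.11) lower in replicate 3. The RBBP5 call was lost with DESeq2 size factors and without the filter on low counts.

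The shift in 168FARN ran with transcript length among these genes. Spearman's rho between the replicate 3 difference and summed exon length was -0.85 over the 12 members and targeted genes in 168FARN, against 0.06 over the 11814 tested genes with a known length, and -0.45 against -0.23 in 67NR. These points share libraries and depth, and the values are a description. KMT2A (16.7 kb of exons), KMT2D and KMT2C were among the 74 tested genes over 16 kb in 168FARN, whose median difference was -0.31, with 14 higher and 39 lower. The part of length in the replicate difference was not tested.

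**Figure D5:**
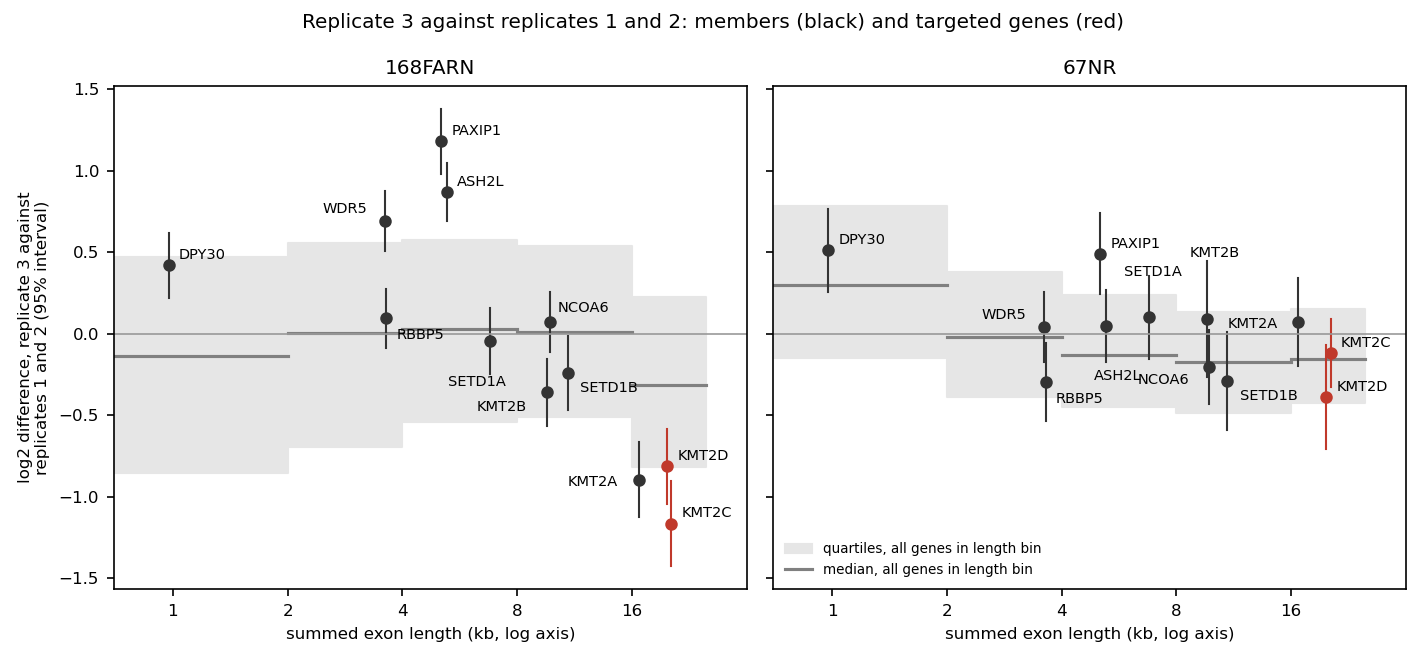
Log2 difference of replicate 3 against replicates 1 and 2 with its 95% interval (vertical axis) against summed exon length in kb (horizontal log axis) for the 10 members (black) and KMT2C and KMT2D (red) in each line; grey lines and bands are the median and quartiles of all tested genes in a length bin. In 168FARN, PAXIP1, ASH2L and WDR5 lie above the band and KMT2A and KMT2C below it.

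Beyond the 10 members, 20 further genes were followed, covering other subunits and partners of these complexes and other enzymes that modify histones. In 67NR Kmt2c KO 5 of the 20 were called, 1 higher and 4 lower, beside 34.2% of all genes, and in 67NR Kmt2d KO 3 were, 1 higher and 2 lower, beside 22.8%. With the block 7 of the 20 were called in each, 3 higher and 4 lower, beside 52.5% and 41.8% of all genes. HCFC2 (log2 0.62 ± 0.18 and 0.63 ± 0.17 with the block) and PAGR1A (1.22 ± 0.16 and 0.78 ± 0.16) were higher with the block in both KOs and not called without it. PAGR1A exons overlap the Prrt2, Gm20418 and Mvp gene models on the same strand. Summed over these models, the overlap was 83.1% of the PAGR1A exon length. Its counts therefore depend on how shared reads were assigned, and the part of these neighbours in its rise was not tested. In 168FARN 0 of 20 were called in either KO, with 0 at an unadjusted p under 0.05 by edgeR and by DESeq2. With the block 0 were called in each, beside 10.7% and 6.64% of all genes, with 2 at an unadjusted p under 0.05 in each. DESeq2 with the block called KDM1B, lower, in Kmt2d KO, beside 1101 of 13010 genes.

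KDM6A, the H3K27 demethylase that sits in the KMT2C and KMT2D complexes, measured 43.2, 47.5 and 36.3 CPM across the 67NR WT libraries, 61.7, 74.6 and 58.4 across Kmt2c KO and 73.1, 72.9 and 61.2 across Kmt2d KO. All KO libraries were above the WT libraries, and KDM6A rose by log2 0.61 ± 0.16 (adjusted p = 0.018) and 0.70 ± 0.16 (adjusted p = 0.014). KDM1A, a demethylase that removes the mark written by these enzymes, measured 109, 110.1 and 90.2 CPM across the WT libraries, 66.9, 67.6 and 68.8 across Kmt2c KO and 70.7, 68.4 and 74.1 across Kmt2d KO. It fell in both, by 0.60 and 0.54 on the log2 scale (adjusted p = 0.0067 and 0.018). Without 1 library the KDM6A call was lost without Kmt2c KO replicate 2 or WT replicate 1 in Kmt2c KO, at 0.50 to 0.69, and without Kmt2d KO replicate 1 or 2 in Kmt2d KO, at 0.60 to 0.80. The KDM1A call held in all 6 fits of Kmt2c KO, and in Kmt2d KO it was lost without Kmt2d KO replicate 1 or 2 or WT replicate 1 or 2.

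KDM5B, a demethylase of the trimethylated form, measured 94.4, 105.6 and 47.4 CPM across the 67NR WT libraries and 32.1, 29.1 and 12.9 across Kmt2c KO. It fell by 1.74 on the log2 scale (adjusted p = 0.015). KDM5A, its paralogue, fell by 0.51 (adjusted p = 0.034) and WDR82, the subunit of the SETD1A and SETD1B complexes, by 0.61 (adjusted p = 0.031). The KDM5B call held in all 6 fits without 1 library. The KDM5A and WDR82 calls each held in 1 of 6, without WT replicate 1 and without WT replicate 3 respectively, and were lost with only the 6 libraries compared. In Kmt2d KO these 3 genes did not pass the test without the block (KDM5B -0.87, adjusted p = 0.19; KDM5A -0.24, adjusted p = 0.34; WDR82 -0.51, adjusted p = 0.079); with it KDM5B (adjusted p = 0.00019) and WDR82 (adjusted p = 0.0085) did. MEN1, menin, the partner of KMT2A and KMT2B, measured 41.6, 33.8 and 37.1 CPM across the 67NR WT libraries and 24.2, 25.7 and 27.6 across Kmt2d KO, where it fell by 0.54 on the log2 scale (adjusted p = 0.028). This call was lost without Kmt2d KO replicate 1 or 2 or WT replicate 1, and with only the 6 libraries compared, as was that of KDM1A in Kmt2d KO with only those 6. In Kmt2c KO the MEN1 difference was -0.07 ± 0.15 (adjusted p = 0.75).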

How the data were processed

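RNA-seq counts of 18 libraries were used. The authors aligned strand-specific read pairs to mm9 with STAR in the VIPER pipeline and deposited a table of raw counts per gene symbol for each line. The annotation and strand setting of the counting are not given in the sources used here. In the 67NR file, 27 symbols read as dates.

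Counts were tested with edgeR 4.0.16 (quasi-likelihood, TMM scaling, filterByExpr by group, robust) in R 4.3.3, with 9 libraries of a line per fit and 18 for differences between lines. Benjamini-Hochberg adjustment ran over all genes tested, with calls at adjusted p under 0.05 and no limit on the fold change. The study's methods name DESeq2 with genotype as factor, run here (1.42.0) as an alternative. Other alternatives were DESeq2 size factors, no filter, a rule of adjusted p under 0.1 plus a log2 change beyond 0.6 in size, the replicate block, only the 6 libraries compared, and leaving out each library. Fits on replicates 1 and 2 only and DESeq2 with the block were added after the data were seen. CPM used TMM library sizes within a line; RPKM also divided by the summed exon length in GENCODE vM1. Intervals are 95%. The fits were tested on simulated data.

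Libraries of 1 replicate number deviated together from their group means: Pearson's r across genes was 0.65 to 0.90 in 168FARN and 0.35 to 0.72 in 67NR, in every pair above 0.1. Replicate 1 against replicate 2 of another genotype gave like values, 0.62 to 0.73 in 168FARN and 0.28 to 0.52 in 67NR. Replicate 3 against either gave negative values. These correlations set replicate 3 apart and do not show a pairing of replicates 1 and 2 by number. The study treats each collection time as a batch, and on that ground the numbers were read as pairs. The block is given where it changes a call of a member or of a gene of the wider list. The study defines replicates as collections of a cell line 1 passage apart, so p-values measure the spread between passages of the same cells.

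The 10 members and the lists were chosen with earlier results of these data known. Named genes were all members, KMT2C, KMT2D and called genes of the wider list. Guides came from the study's list of oligonucleotides and were matched to mm9. The reverse oligonucleotide listed for KMT2D guide 2 has the sequence of the forward one of KMT2C guide 1, and forward ones were used throughout. The 20 wider genes are KDM6A, PAGR1A, CXXC1, WDR82, HCFC1, HCFC2, MEN1, PSIP1, BOD1, BOD1L, KMT2E, KDM1A, KDM1B, KDM5A, KDM5B, KDM5C, KDM6B, SETD7, EP300 and CREBBP.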

Additional observations from a re-analysis of the deposited data

Results flagged for a closer look

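RBBP5 was the only result marked for a second look, because a test of the difference between the lines themselves was passed: the Kmt2d KO effect in 67NR minus that in 168FARN was -0.79 on the log2 scale (edgeR quasi-likelihood test, adjusted p = 0.039). The direction was opposite in the lines, lower in 3 of 3 replicate numbers of 67NR and higher in 3 of 3 of 168FARN. Neither single-line comparison passed the test without the replicate block, and with it that of 67NR passed and that of 168FARN did not. The unblocked call of the difference between the lines held in 2 of the 12 fits without 1 library.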

How the results depend on the processing

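The number of members called was 0 in both 168FARN KO comparisons with DESeq2, DESeq2 size factors, no filter, the fold limit, the replicate block, only the 6 libraries compared and each of the 6 fits without 1 library. With replicates 1 and 2 only, an alternative chosen after seeing the data, it was 2 in 168FARN Kmt2d KO, 1 between the 168FARN KOs, 7 in 67NR Kmt2c KO, 3 in 67NR Kmt2d KO, 3 between the 67NR KOs, 4 and 2 for the Kmt2c KO and Kmt2d KO differences between lines, and 5 between the WT lines. The shares of all genes called were, in the same order, 21.1%, 17%, 60.4%, 51.2%, 22.1%, 42.9%, 36.6% and 68.9%. With the replicate block the count was 5 in 67NR Kmt2c KO, 1 in 67NR Kmt2d KO, and 4 and 2 for the differences between lines, and the block changed no other count of members. With DESeq2 it was 2 for the Kmt2c KO difference between lines, and with DESeq2 and the block, also added later, 1 in 67NR Kmt2d KO and 3 in 67NR Kmt2c KO. The rule of an adjusted p under 0.1 and a fold limit gave 0 for replicate 3 in 67NR and 1 for the Kmt2c KO difference, and without a filter on low counts the Kmt2d KO difference gave 0. RBBP5 in 67NR Kmt2c KO missed the threshold without the filter (adjusted p = 0.059) and with only the 6 libraries compared (adjusted p = 0.055). The cause of these changes was not tested.

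Without 1 library, the count was 1 to 3 in 67NR Kmt2c KO (1 without Kmt2c KO replicate 2, WT replicate 1 or WT replicate 2) and 0 to 1 for the Kmt2d KO difference between lines. The count was 0 in every such fit of 67NR Kmt2d KO and 2 in every such fit of the WT lines. Small log2 fold changes turned sign in some of these fits, and none of them was called in the full fit. In 168FARN Kmt2c KO the ranges were -0.29 to 0.15 for KMT2A, -0.081 to 0.19 for KMT2B, -0.18 to 0.39 for WDR5, -0.014 to 0.098 for RBBP5, -0.16 to 0.55 for ASH2L, -0.19 to 0.089 for DPY30, -0.0072 to 0.11 for NCOA6 and -0.61 to 0.43 for PAXIP1. In 168FARN Kmt2d KO they were -0.018 to 0.21 for SETD1B, -0.18 to 0.34 for WDR5, -0.28 to 0.47 for ASH2L, -0.14 to 0.21 for DPY30 and -0.58 to 0.35 for PAXIP1. In 67NR Kmt2c KO they were -2.3e-05 to 0.24 for KMT2A and -0.21 to 0.082 for SETD1B, and in 67NR Kmt2d KO -0.019 to 0.066 for WDR5, -0.035 to 0.12 for NCOA6 and -0.35 to 0.10 for PAXIP1. KMT2C in 168FARN Kmt2d KO was -0.0090 without the filter, and SETD1B in 67NR Kmt2c KO was 0.029 with replicates 1 and 2 only.

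Over all genes, DESeq2 called 249 in 168FARN Kmt2c KO, 215 in 168FARN Kmt2d KO, 198 between the 168FARN KOs and 477 between the 67NR KOs, where edgeR called 23, 19, 21 and 90. The precision rests on 3 libraries per group. In 168FARN Kmt2d KO, the 95% interval without the replicate block was over 1 log2 unit to each side for PAXIP1. Moderate changes could therefore not be seen there by that fit. Within replicate numbers the PAXIP1 log2 ratios in this comparison were -0.007, -0.31 and -0.04, and the 168FARN intervals were narrower with the block. SETD1A counts, and with them its RPKM and the enzyme shares, depend on how reads shared with the Hsd3b7 model were assigned.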
